A study of Mus musculus with 24 samples.

Results

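The Schlafen genes considered here were Slfn2, Slfn3, Slfn5, Slfn8 and Slfn9, which lie in a cluster on mouse chromosome 11 near 83 Mb (GRCm38). They were taken as the rows of the count table whose Ensembl identifiers carry these 5 symbols in the GENCODE M21 annotation, out of 48985 genes in the table. Of the 5, 4 had a row. Slfn8 was not analysed here. The filter on low counts kept 3 of them, Slfn3, Slfn5 and Slfn9, for testing, and Slfn2 did not pass it. The 5 genes had been chosen by their measured levels in these libraries, which differed between lines, so those levels are given below as a description and without a test.

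RNA came from F121/9 cells, a female mouse embryonic stem cell line that is a first-generation hybrid of the CAST/EiJ and 129/Sv strains. All lines were grown without serum on gelatin with LIF, the MEK inhibitor PD0325901 and the GSK-3β inhibitor CHIR99021, so these conditions were shared by every group. A total of 24 poly(A) RNA libraries covered 5 recombinations (i7, i10, i12, d3 and d6), each with a parental line, labelled control, and with recombined clones: d3 gave clone 12 and clone 21, d6 gave clone 16, i7 gave clone 7 and clone 12, i10 gave clone 18, and i12 gave clone 10. Each of these 12 lines had 2 biological replicates. A clone is a single line, so a difference between a clone and its parental line cannot be told apart from a difference that arose in picking and growing that clone, and the 5 parental lines carry separate labels without a description of how they differ. Per the series' design text, the purpose was to compare each recombined clone with its own parental line.

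Schlafen proteins are found in mammals and a few other vertebrates, and many of their genes are induced by type I interferon and in activated immune cells. The mouse genes fall into short members such as Slfn1 and Slfn2, intermediate members such as Slfn3 and Slfn4, and long members such as Slfn5, Slfn8 and Slfn9, whose carboxy-terminal part resembles a helicase. Slfn2 is best known for keeping T cells quiescent, and the family as a whole has been linked to tRNA handling and to restriction of viruses. Slfn8, Slfn9 and the pseudogene Slfn10-ps are near copies that lie beside each other.

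The promoters of the long members are shown here because Slfn8 and Slfn9 are near copies, and that of Slfn3 because most counts of this gene came from 1 family of lines. Each stretch runs from 250 bases before to 50 bases after the RefSeq transcript start on GRCm38.p6, is written 5′ to 3′ on the strand of the gene, and has in capitals any match to GAAANNGAAA on either strand, a spacing found in elements bound by interferon regulatory factors.
Slfn5 (chr11:82951852-82952151, plus strand): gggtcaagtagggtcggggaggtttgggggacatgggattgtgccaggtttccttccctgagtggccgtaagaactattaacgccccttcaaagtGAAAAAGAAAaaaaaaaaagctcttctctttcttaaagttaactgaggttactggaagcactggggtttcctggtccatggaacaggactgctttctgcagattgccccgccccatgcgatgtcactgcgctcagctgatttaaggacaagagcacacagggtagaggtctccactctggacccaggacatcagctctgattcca
Slfn9 (chr11:82991781-82992080, minus strand): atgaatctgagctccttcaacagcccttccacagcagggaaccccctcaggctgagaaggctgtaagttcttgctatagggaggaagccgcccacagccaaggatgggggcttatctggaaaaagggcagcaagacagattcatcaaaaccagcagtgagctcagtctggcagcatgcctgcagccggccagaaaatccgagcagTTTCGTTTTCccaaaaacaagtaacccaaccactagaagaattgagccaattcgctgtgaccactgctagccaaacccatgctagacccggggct
Slfn8 (chr11:83020761-83021060, minus strand): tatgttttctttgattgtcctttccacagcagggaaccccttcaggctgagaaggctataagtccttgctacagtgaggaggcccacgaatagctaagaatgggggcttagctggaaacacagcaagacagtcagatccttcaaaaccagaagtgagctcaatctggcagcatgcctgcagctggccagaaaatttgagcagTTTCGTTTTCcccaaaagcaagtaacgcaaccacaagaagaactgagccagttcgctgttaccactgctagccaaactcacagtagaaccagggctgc
Slfn3 (chr11:83191080-83191379, plus strand): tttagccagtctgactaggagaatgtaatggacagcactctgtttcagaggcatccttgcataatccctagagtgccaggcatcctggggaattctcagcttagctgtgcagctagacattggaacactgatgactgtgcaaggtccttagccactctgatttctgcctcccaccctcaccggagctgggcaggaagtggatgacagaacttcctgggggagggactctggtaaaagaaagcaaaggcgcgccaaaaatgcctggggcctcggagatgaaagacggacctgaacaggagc
The Slfn5 window held 1 match, GAAAAAGAAA, whose first base lay at -155 from the start. The Slfn9 and Slfn8 windows each held the match TTTCGTTTTC, on the opposite strand, at -45 and -48. A match was present in 1131 of 32851 RefSeq promoters of this length (3.44%). No match was found in these windows of Slfn2, Slfn3, Slfn4, Slfn1 or Slfn14. The longest run of bases that the Slfn9 and Slfn8 promoters shared was tctggcagcatgcctgcagc (20 bases).

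Copies also bear on the counts. Of the 5963 stretches of 75 bases, the read length, in Slfn9 transcripts, 5.90% occurred in another Schlafen transcript, most of them in Slfn10-ps (267 stretches). The share was 11.5% for Slfn10-ps, 6.99% for Slfn8, 1.78% for Slfn4, 1.32% for Slfn3 and 0 for Slfn5. All 45 shared stretches of Slfn3 occurred in Slfn4. Counts of Slfn9 and Slfn10-ps are therefore uncertain where reads could be split between them. Slfn5 overlaps the antisense gene Slfn5os, which had 54 counts in all. The library kit marks strand, but whether the counting used strand is not given in the sources used here.

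The libraries held 3286819 to 15581094 counts assigned to an allele, and 3 counts, taken as the smallest detectable number, corresponded to 0.198 to 0.907 CPM (129S1 and CAST counts added and scaled to the effective library size) depending on the library. The Schlafen genes were low: by median CPM over the libraries, 25.1% of the 16253 tested genes were below Slfn9 (2.71 CPM), 18.7% below Slfn5 (1.63 CPM) and 1.42% below Slfn3 (0.297 CPM). Their values rest on few counts, with sums over the 24 libraries of 716 for Slfn9, 459 for Slfn5 and 155 for Slfn3. All 11 listed markers of embryonic stem cells were well expressed, such as Pou5f1 (511 to 1109 CPM) and Nanog (985 to 2217 CPM). The leukocyte gene Ptprc, the macrophage genes Adgre1 and Lyz2 and the fibroblast gene Dcn had no count in any library. Over the libraries the listed T cell genes summed to 10.9 to 38.6 CPM, most of it Lck, the macrophage genes to 11.9 to 28.6 CPM, most of it Csf1r, the other leukocyte genes to 0 to 1.84 CPM, the fibroblast genes to 3.93 to 25.7 CPM, most of it Thy1, and the primitive endoderm genes to 3.36 to 12.5 CPM. Their part in the Schlafen levels was not tested. In bulk RNA, fewer cells expressing a gene and less RNA per cell cannot be told apart.

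Slfn9, a long member with the helicase-like part, had the highest median level of the 3 tested members. Among parental lines it stood at 5.78 and 3.80 CPM in the 2 replicates of i7, at 2.23 and 5.25 in d3, at 2.62 and 2.81 in i12, at 2.86 and 1.51 in i10, and at 0.312 and 0.945 in d6. The d6 replicates lay below every other parental replicate, while the i7, d3, i12 and i10 lines overlapped with their neighbours in this order. The mean was 4.79 ± 1.40 CPM (SD, n = 2) in i7 parental and 0.629 ± 0.448 CPM (SD, n = 2) in d6 parental, a ratio of 7.62. Those means rest on 87 and 9 counts, with 95% exact Poisson intervals of 3.68 to 5.67 and 0.258 to 1.07 CPM, which cover counting error only. The d6 clone was as low, at 1.04 and 0.672 CPM in clone 16. Over the 4 d6 libraries Slfn9 reached 1.04 CPM at most, and over the other 20 libraries only i10 clone 18 replicate 2, at 0.790 CPM, fell within the d6 range.

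Slfn5, also a long member, did not follow the same order. Its parental levels were 2.14 and 3.06 CPM in i12, 3.02 and 1.86 in i7, 2.40 and 1.13 in d3, 1.14 and 1.21 in i10, and 1.25 and 0.788 in d6. Each line overlapped with the next in this order, and the ratio of the highest to the lowest mean, i12 parental to d6 parental, was 2.55. The highest values of all libraries were the 4.06 and 6.06 CPM of i7 clone 12, followed by 3.50 CPM in i7 clone 7 replicate 2. The lowest were the 0.725 and 0.593 CPM of i10 clone 18.

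Slfn3, of the intermediate class, was mainly a gene of the d3 family. The parental line had 1.41 and 0.823 CPM, its clone 12 had 1.92 and 2.33 CPM and its clone 21 had 1.39 and 1.70 CPM, so the 6 d3 libraries ranged from 0.823 to 2.33 CPM. The next were i7 clone 7 at 0.830 and 0.560 CPM and i7 parental at 0.394 and 0.442. The other 18 libraries had a median of 0.187 CPM, and 6 of them had no count. Only i7 clone 7 replicate 1, at 0.830 CPM, reached the lowest d3 library, at 0.823 CPM. Of the 155 Slfn3 counts, 117 (75.5%) came from d3 libraries, which held 34.7% of all counts. Slfn3 passed the filter on low counts through the d3 libraries.

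Slfn2, the regulator of T cell quiescence, was close to absent, with 2 counts in all, 1 each in d3 clone 12 replicate 1 and i12 clone 10 replicate 1. The other 22 libraries had 0, which allows a level of up to 3 counts, that is 0.210 to 0.907 CPM.

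Per kilobase of exon, on which levels of different genes can be set side by side, Slfn9 stood at 0.803 CPM per kb in i7 parental, against 0.386 for Slfn5 and 0.123 for Slfn3. In d6 parental the means were 0.161 for Slfn5, 0.105 for Slfn9 and 0.0610 CPM per kb for Slfn3. The first 2 rest on 17 and 9 counts, and the order of the 3 genes differed between the replicates. In d3 parental the means were 0.627 for Slfn9, 0.327 for Slfn3 and 0.279 for Slfn5, and the order again differed between the replicates. Because only reads with an allele assigned are counted, these levels also depend on how many strain differences each gene carries, which was not measured here.

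**Figure D1:**
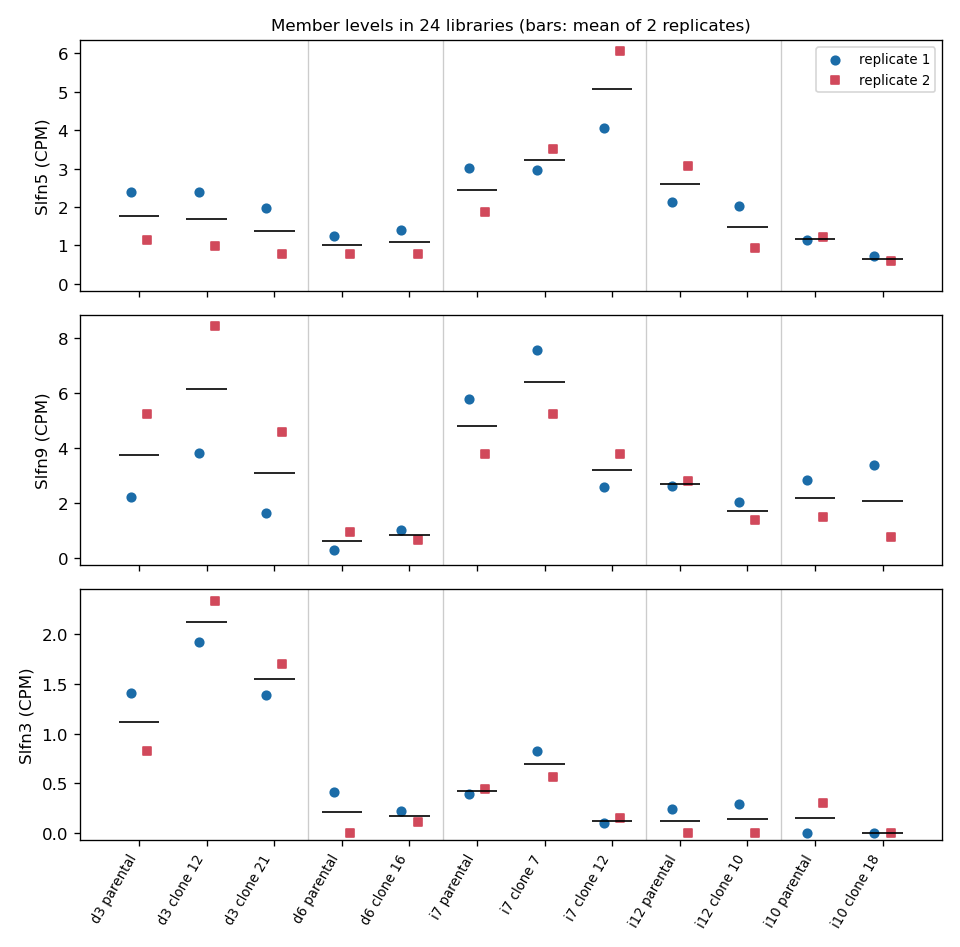
Level (CPM, y axis) of Slfn5, Slfn9 and Slfn3 in each of the 24 libraries by line (x axis), with circles for replicate 1, squares for replicate 2 and bars at the mean of the 2. Slfn3 is at 0.823 to 2.33 CPM in the d3 lines, Slfn9 is lowest in d6 parental, and Slfn5 is highest in i7 clone 12.

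The members added together (Slfn2, Slfn3, Slfn5 and Slfn9) gave 7.65 ± 2.19 CPM (SD, n = 2) in i7 parental, 6.62 ± 0.826 in d3 parental, 5.43 ± 0.613 in i12 parental, 3.51 ± 0.696 in i10 parental and 1.86 ± 0.172 in d6 parental. The range over the parental lines was 1.96 on the log2(CPM + 0.1) scale. Without Slfn9 the range was 1.21. Without i7 parental replicate 1 the highest line was d3 parental and the range was 1.78. Over the 12 lines, Slfn9 correlated with Slfn3 (r = 0.611) and with Slfn5 (r = 0.561), and Slfn3 and Slfn5 had r = 0.047. These are descriptions over lines of which the clones share a parent.

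The design compares each recombined clone with its parental line, and no Schlafen gene was called in any clone. None of the 21 tests (3 genes in 7 clones) had a Benjamini-Hochberg adjusted p under 0.05 in edgeR's quasi-likelihood test, with adjusted p from 0.838 to 1.0, and none had an unadjusted p under 0.05. DESeq2 also called 0, with 0 at an unadjusted p under 0.05. The tests of Slfn3 outside d3 carry little information, since this gene passed the filter through d3. Its counts summed to 26 over the i7 libraries, 8 over d6, 3 over i12 and 1 over i10. Over all 16253 genes, the share called was 0.0123% for d3 clone 12, 0.0554% for d3 clone 21, 0.0123% for d6 clone 16, 0.0246% for i7 clone 12 and 0.0% for i7 clone 7, i12 clone 10 and i10 clone 18. The 95% intervals were wide, and 0 of the 21 lay wholly between log2 changes of -1 and 1, so a change of that size in at least 1 direction lay within each interval. The shares called depended on the fit: for i7 clone 12 it was 0.468% with DESeq2 and 6.27% (1019 genes) with a replicate block, and without d3 parental replicate 1 it was 4.74% for d3 clone 12 and 3.63% for d3 clone 21. No member was called in any of these fits, but with the replicate block 2 of the 21 edgeR tests had an unadjusted p under 0.05.

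Slfn5 in i7 clone 12 came closest. It stood at 4.06 and 6.06 CPM in the clone against 3.02 and 1.86 in i7 parental, a log2 change of 1.07 (SE 0.52, 95% interval -0.03 to 2.17, edgeR adjusted p = 0.838). Both clone replicates lay above both parental replicates. In the same clone Slfn9, at 2.61 and 3.79 CPM, lay below the parental replicates, with a log2 change of -0.57 (SE 0.60). Slfn3, at 0.0967 and 0.152 CPM, also lay below them, on 1 and 2 counts against 3 and 5, and no fold is given for it. In this comparison 49.2% of all tested genes had replicates that did not overlap, so the 3 of 3 members without overlap are read against that share.

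In the d3 clones, Slfn3 did not overlap in clone 12, with a log2 change of 0.91 (SE 0.66), and overlapped in clone 21, with 0.46 (SE 0.67). Slfn9 changed by 0.72 (SE 0.59) in clone 12 and by -0.25 (SE 0.61) in clone 21, both within the spread of the replicates. In d6 clone 16 no member was free of overlap, and the log2 changes were 0.10 (SE 0.61) for Slfn5 and 0.56 (SE 0.82) for Slfn9. In i7 clone 7 only Slfn3 lay above both parental replicates. Slfn3 passed the filter through d3 and had 26 counts over the 6 i7 libraries, so its fold is not read there. In i12 clone 10, Slfn5 at 2.04 and 0.943 CPM and Slfn9 at 2.04 and 1.41 CPM lay below the parental replicates, with log2 changes of -0.74 (SE 0.62) and -0.62 (SE 0.73). In i10 clone 18, Slfn5 lay below them, with -0.83 (SE 0.79), and Slfn9 overlapped, with -0.16 (SE 0.75). Slfn3 was at or under 3 counts in every i12 and i10 library and at or under 4 in every d6 library, so no fold is given for it there. In all, 8 of 21 gene and clone combinations did not overlap, 3 higher and 5 lower. They include Slfn3 in i7 clone 7 (higher) and in i7 clone 12 (lower), both on few counts. The share of all tested genes without overlap was 25.7% for i7 clone 7, 23.2% for d3 clone 21, 22.4% for d3 clone 12, 19.7% for i12 clone 10, 18.3% for d6 clone 16 and 17.3% for i10 clone 18.

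**Figure D2:**
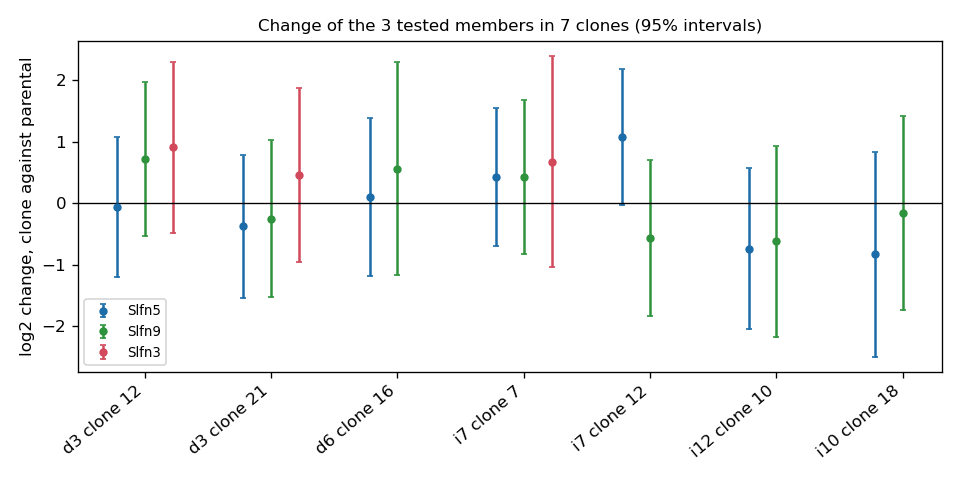
Log2 change of each clone against its parental line (y axis) for Slfn5, Slfn9 and Slfn3 in the 7 clones (x axis), with 95% intervals from the edgeR fit of 24 libraries. Slfn3 is drawn only where every library of both groups had at least 3 counts. It passed the filter through d3, so its point in i7 clone 7 is not read. Every interval drawn includes 0, and that of Slfn5 in i7 clone 12 runs from -0.03 to 2.17.

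Whether the members responded differently from clone to clone was asked directly. For Slfn5 and Slfn9, edgeR called 0 of 38 differences between clone effects of different recombinations (2 genes, 19 pairs of clones), and 1 had an unadjusted p under 0.05. It was Slfn5 in i7 clone 12 against i12 clone 10, a difference of 1.81 in log2 change (SE 0.81, adjusted p = 1.00). Over all tested genes the share called was 0.0% for 9 of the 19 pairs and 0.00615%, 0.0246%, 0.0308%, 0.0369% or 0.0492% for the others. Between sister clones of 1 recombination 0 of 6 tests were called by edgeR or by DESeq2, and 1 had an unadjusted p under 0.05 in each. That was Slfn3 in i7 clone 12 against i7 clone 7, on counts of 1 and 2 against 7 and 8 (0.0967 and 0.152 against 0.830 and 0.560 CPM). Slfn3 passed the filter through d3, so no fold is given for it here. Of all tested genes 0.0923% were called in that comparison and 0.0492% between the d3 clones. Without overlap were Slfn5, higher, and Slfn9 and Slfn3, lower, in i7 clone 12 than in clone 7, where 50.7% of all tested genes did not overlap, and Slfn3, lower in d3 clone 21 than in clone 12, where 18.2% did not.

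Within the d3 family the long members differed between replicates 1 and 2. Slfn5 was lower in replicate 2 than in replicate 1 in all 3 d3 lines, at 1.13, 0.988 and 0.767 CPM against 2.40, 2.38 and 1.97. Slfn9 was higher in replicate 2 in the same 3 lines, at 5.25, 8.44 and 4.60 CPM against 2.23, 3.84 and 1.64. Slfn3 did not show such a split, with the higher value in replicate 1 of d3 parental and in replicate 2 of both d3 clones. No label states that libraries of equal replicate number were prepared side by side. In a fit with the replicate number as a term, run after these values were seen, 28.6% of all tested genes were called between the replicates of d3, where Slfn5 and Slfn9 were among them, against 19.6% for d6, 19.4% for i12, 17.7% for i10 and 4.31% for i7, where no member was. When each recombination was fitted alone the order of these shares changed, to 10.0% for d3, 18.0% for i7, 25.9% for d6, 37.4% for i12 and 39.4% for i10. Slfn5 and Slfn9 were called in d3 in these fits too, and Slfn9 was also called in i10, with a log2 difference of -1.48 (SE 0.54, edgeR adjusted p = 0.0194). This spread enters every d3 comparison of Slfn5 and Slfn9 above.

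The hybrid genome allowed each gene to be read by allele, and the members differed in it. Of the Slfn9 counts, 63.3% were 129S1 (95% exact binomial interval 59.6 to 66.8%, 453 against 263 counts), where whole libraries ranged from 49.5 to 52.4%. The 129S1 count was the higher in 18 of 24 libraries and the lower in 4. By family the Slfn9 share was 64.8% in d3, 65.5% in d6, 61.7% in i7, 66.7% in i12 and 57.9% in i10. Slfn5 was even, at 49.0% (44.4 to 53.7%). Slfn3 had 58.7% (50.5 to 66.5%), and its d3 counts had 62.4% (53.0 to 71.2%).

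Other genes of the cluster were more one-sided. The pseudogene Slfn10-ps, the near copy of Slfn9, had 199 of its 204 counts on CAST, a 129S1 share of 2.45% (0.801 to 5.63%). CAST was the higher in 22 of 24 libraries, and in all 6 d3 libraries the 129S1 count was 0. Slfn4, an intermediate member known from macrophages, had a 129S1 share of 23.2% (13.0 to 36.4%) on 56 counts. How reads were placed in near copies, and how strain differences shift the mapping, bears on such shares and was not tested. The intervals cover counting error only.

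**Figure D3:**
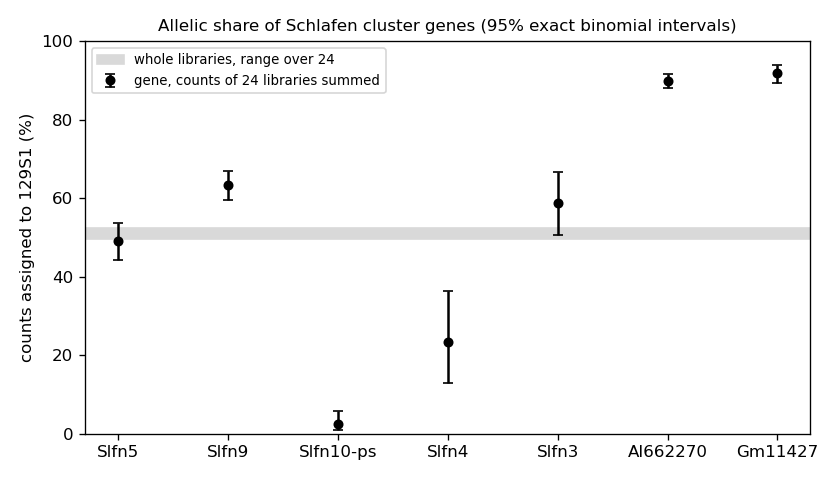
Share of counts assigned to the 129S1 allele (%, y axis) for genes of the cluster in chromosomal order (x axis), with the counts of 24 libraries summed and 95% exact binomial intervals, and in grey the range of whole libraries. Slfn10-ps is at 2.45%, Slfn5 at 49.0%, Slfn9 at 63.3%, and AI662270 and Gm11427 are at 89.9% and 91.8%.

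Between clones and parental lines the allelic ratio could be tested for Slfn9, the only member whose 129S1 and CAST counts both averaged 10 or more. edgeR called it in 0 of 7 clones, with 0 at an unadjusted p under 0.05. The log2 change of the ratio was -0.71 (SE 0.62) in d3 clone 12, -0.78 (SE 0.70) in d3 clone 21, -0.25 (SE 0.67) in i7 clone 12 and 1.70 (SE 1.24) in i12 clone 10. The last of these rests on 28 129S1 and 14 CAST counts over the 4 i12 libraries. Over all 10795 genes in that fit the share called was 3.41% for d3 clone 21, 2.33% for i7 clone 12, 0.0463% each for d3 clone 12 and d6 clone 16, 0.00926% each for i7 clone 7 and i12 clone 10, and 0.0% for i10 clone 18.

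The d3 pattern of Slfn3 extended over its neighbours on both sides. Slfn4, which lies just before it (chr11:83175186-83190216, plus strand), had 52 of its 56 counts in the 6 d3 libraries, at 0.491 to 0.988 CPM, and at most 1 count in any other library. Slfn4 did not pass the filter, and 1.78% of its stretches of 75 bases occurred in another Schlafen transcript, most of them in Slfn3. Behind Slfn3 (chr11:83191330-83215154) lie the processed transcript AI662270 (chr11:83223576-83226604, plus strand) and the pseudogene Gm11427 (chr11:83224454-83260960, plus strand), which were singled out after their values were seen. In d3, AI662270 stood at 15.7 and 9.98 CPM in the parental line, at 20.2 and 11.4 CPM for clone 12 and at 21.3 and 10.6 CPM for clone 21. In the other 18 libraries it had a median of 0.330 CPM and at most 1.19 CPM, in i7 clone 7 replicate 1, and no count in either replicate of d6 parental. Gm11427 ranged from 5.21 to 9.83 CPM in d3 libraries and from 0 to 1.90 CPM in the others. The d3 libraries thus held 94.4% of the AI662270 counts, 90.9% of those of Gm11427 and 92.9% of those of Slfn4.

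Both RNAs came mostly from the 129S1 allele, AI662270 with 89.9% of 1169 counts (88.0 to 91.6%) and Gm11427 with 91.8% of 596 counts (89.3 to 93.9%), whereas Slfn4 beside them had most counts on CAST. AI662270 and Gm11427 overlap on the same strand, so their reads cannot be assigned with certainty. Neither was called in a d3 clone, with log2 changes for AI662270 of 0.30 (SE 0.45) in clone 12 and 0.31 (SE 0.45) in clone 21. Within i7, AI662270 was at 0.290 and 0.227 CPM in clone 12, the level of 3 counts in each library, against 1.19 and 1.05 in clone 7. The i7 parental replicates lay between those of the clones. Between these clones 50.7% of all tested genes did not overlap. Most AI662270 counts came from d3, so no fold is given for it in i7.

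**Figure D4:**
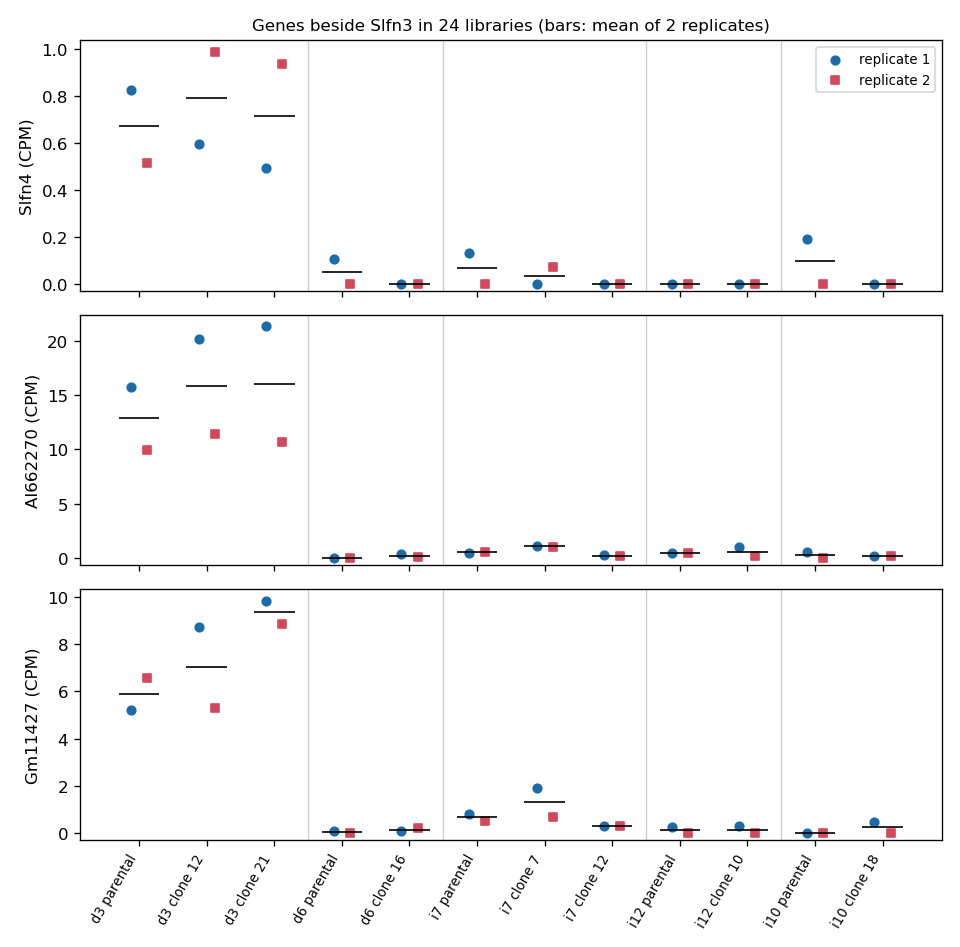
Level (CPM, y axis) of Slfn4, AI662270 and Gm11427, the genes beside Slfn3, in the 24 libraries by line (x axis), with circles for replicate 1, squares for replicate 2 and bars at the mean. All 6 d3 libraries lie above the other 18 in each of these genes.

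The rest of the region did not share the pattern to this extent. Slfn1 and Slfn14 had no count in any library. Slfn5 had 26.1% of its counts in d3 libraries, Slfn10-ps 33.3% and Slfn9 42.5%, against 34.7% of all counts. Expressed protein-coding genes outside the cluster were far higher: Ap2b1, an adaptor subunit of clathrin coats, had a median of 193 CPM in d3 and 204 CPM elsewhere, and Rffl, a ubiquitin ligase, 70.2 and 66.1 CPM. Nle1 had a higher median in d3, 39.4 against 31.2 CPM, and Rad51d a lower one, 13.0 against 17.7 CPM. For both genes the ranges of the 2 sets of libraries overlapped. Parental means differed by a ratio of 1.25 for Rffl, 1.40 for Ap2b1, 1.62 for Nle1 and 1.93 for Rad51d, all below the 7.62 of Slfn9. The nearby protein-coding genes Fndc8, Unc45b, Rasl10b, Gas2l2 and 1700020L24Rik were at or below 1.84 CPM in every library. Rasl10b and 1700020L24Rik had 113 and 75 counts in all. Their lowest parental means were 0.151 CPM in i10 and 0.119 CPM in i12. Both lie below the level of 3 counts, which was 0.198 CPM or more in every library, so no ratio is given. Whether low genes outside the cluster reach the ratio of Slfn9 cannot be read from them. Fndc8, Unc45b and Gas2l2 had a parental mean of 0, so no ratio is given for them.

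**Figure D5:**
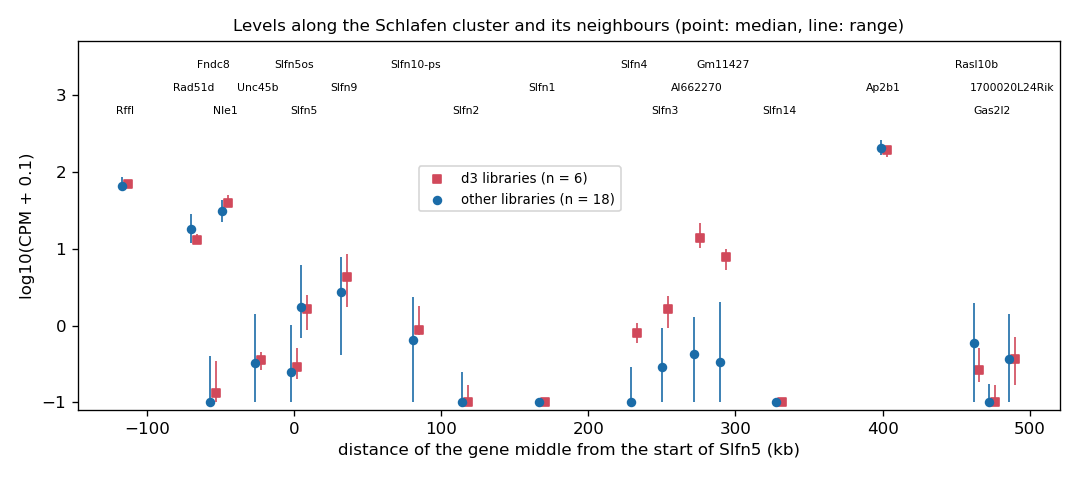
Levels along the region, as log10(CPM + 0.1) (y axis) against the distance of each gene's middle from the start of Slfn5 (kb, x axis), with the median (point) and range (line) of the 6 d3 and the 18 other libraries. Slfn4, Slfn3, AI662270 and Gm11427 are higher in d3, and the flanking genes Rffl and Ap2b1 are at similar levels in both sets.

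The genes whose levels over the 12 lines were most like the summed members were Psd4 (Pearson r = 0.957), Platr14 (r = 0.940), Smpd1 (r = 0.926), Rap1gds1 (r = 0.924) and Ly6k (r = 0.919), by log2(CPM + 1) of line means. Psd4, for example, was lowest in d6 parental at 1.15 CPM and highest in i7 clone 12 at 13.7 CPM. They were picked as the highest of all tested genes, so their values are a description.

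Schlafen genes are known interferon targets, and a list of 46 genes of that pathway was read alongside. Of the 45 with a row, 26 were tested. The receptor and its signalling chain were present, with Ifnar1 at 37.7 to 60.4 CPM and the kinase gene Jak1 at 11.2 to 28.0 CPM. Induced genes of the list were mixed. Some were at or near 0: Ifit1, Oas1a, Oas1g and Gbp2 had no count in any library, Isg15 had 6 counts in all and Usp18 had 1. Others were expressed in every library, such as Ifitm3 at 138 to 298 CPM and Ifitm1 at 68.5 to 244 CPM. Stat2 stood at 22.2 to 83.8 CPM, Ddx58 at 9.43 to 83.2 CPM and Eif2ak2 at 23.0 to 46.4 CPM. These examples of the list were named after their values were seen. None of the 19 untested genes exceeded 1.34 CPM in any library.

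Over the 7 clones, edgeR called 0 of the 26 tested pathway genes in either direction (4 of 182 tests had an unadjusted p under 0.05), and DESeq2 called 0 (also 4). The list's median log2 change per clone ran from -0.03 to 0.06, where the median of all tested genes ran from -0.01 to 0.01. Between sister clones both tools called 0 of 52, with 3 at an unadjusted p under 0.05 each. With a replicate block, edgeR called 3 higher in i7 clone 12 than in i7 parental (Ifi35, Irf1 and Tap1) and 1 lower (the kinase gene Tyk2), where 6.27% of all tested genes were called. Between i7 clones 12 and 7 it called 2 higher (Ifi35 and Irf1) and 2 lower (Tyk2 and Samd9l), where 9.76% were.

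The tested pathway genes that ranged most over the parental lines did not share 1 order with the Schlafen genes. Tap1, a peptide transporter of antigen presentation, had its highest parental mean in i12, on replicates of 0.952 and 7.14 CPM, so that it rests on replicate 2: replicate 1 alone was below both d6 replicates (1.87 and 3.15) and both d3 replicates (0.992 and 1.54). Its lowest replicates were 0.263 and 0.531 CPM in i7 parental. Mx1, an antiviral GTPase, was highest in i7 parental at 5.12 and 4.86 CPM, above every other parental replicate, and had its lowest mean in i10 parental at 0 and 1.81. Oasl1, a translational repressor of Irf7, was also highest in i7 parental, at 5.39 and 6.37 CPM, and had its lowest mean in i12 parental at 2.14 and 1.28, although d3 parental replicate 1 was lower, at 0.661. Bst2, which tethers virus particles at the cell surface, had its highest mean in i12 parental at 28.6 and 61.7 CPM and its lowest in d6 parental at 9.16 and 23.8. Irf1, an interferon regulatory factor, had its highest mean in i12 parental, with both replicates at 17.3 CPM or above, and stood at 6.31 and 8.40 CPM in i7 parental.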

How the data were processed

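The 24 libraries (12 lines, 2 replicates each) were stranded poly(A) libraries sequenced as single-end reads of 75 bases, per the labels' protocols. The authors deposited a table of raw counts, whole numbers per gene, with a 129S1 and a CAST column per library. The submitters' processing notes name STAR, SAMtools and mm10 without a role or version. The counting program, its use of strand and the handling of reads without a strain difference are not given in the sources used here. Of 48985 identifiers, 48301 were identical to GENCODE M21 (GRCm38) and 48838 matched without the version number.

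The counts of both alleles were added. edgeR 4.0.16 (R 4.3.3) fitted all 24 libraries with a coefficient per line, TMM normalisation and filterByExpr (16253 genes kept, 12 residual degrees of freedom, biological coefficient of variation 0.246), and its quasi-likelihood test was adjusted by Benjamini-Hochberg over all genes. Calls are at an adjusted p under 0.05. The allelic ratio was fitted where both alleles averaged 10 counts or more (10795 genes), with 1 coefficient for each library and 1 allele coefficient for each line. The procedure was tested on simulated data. For total counts the changes were placed in genes with higher mean levels than the Schlafen genes, so recovery at their levels was not tested. DESeq2 1.42.0 served as an alternative, and pandas 2.3.3, numpy 2.4.6, matplotlib 3.10.9 and scipy 1.17.1 in Python 3.11.15 did the remaining steps. P-values measure the spread between 2 replicates per line, which the labels call biological duplicates.

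The genes named were the members, all other genes whose symbol starts with Slfn, the 5 nearest protein-coding genes on each side of the cluster, the 5 genes most like the summed members over the 12 lines, and, of a list of 46 interferon pathway genes, those called in a clone and the 5 with the widest range over the parental means. The results of some genes that this rule or the lists named are not reported here. The members and all lists were chosen with earlier results of these data known. Promoters are those of RefSeq on GRCm38.p6, matched by symbol for all 5 members. Motif matches are descriptions.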

Additional observations from a re-analysis of the deposited data

How the results depend on the processing

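The counts of called Schlafen genes were 0 for clone against parental line, 0 between sister clones and 0 for the allelic ratio, and remained 0 under every alternative run: DESeq2, no filter beyond 1 count (where Slfn2 enters), fits restricted to the libraries of 1 recombination, a minimum of 5 counts per allele (where Slfn5 enters), and leaving out each of the 24 libraries in turn (0 to 0). A minimum of 20 counts per allele left no member to test. The labels do not say that replicate numbers pair libraries. The difference between replicates 1 and 2 correlated over genes between lines of the same recombination (r from 0.358 to 0.688 in 9 pairs of lines, median 0.549) and less between lines of different recombinations (-0.205 to 0.603 in 57 pairs, median 0.205). With a replicate block within each recombination the counts were again 0, 0 and 0, and the lowest edgeR adjusted p were 0.0628, for Slfn5 in i7 clone 12 against i7 parental, and 0.0712 between sister clones. An unadjusted edgeR p under 0.05 was then found in 2 of 21 tests against parental lines and 3 of 6 between sister clones. Without the block these were 0 and 1. The block also called 3 interferon pathway genes higher in i7 clone 12 than in i7 parental (Ifi35, Irf1 and Tap1) and 1 lower (Tyk2), and called 2 higher and 2 lower between i7 clones 12 and 7. The block called 6.27% of all tested genes (1019) in the first of these comparisons and 9.76% (1587) in the second, against 4 and 15 genes without it and 76 and 155 with DESeq2. Without d3 parental replicate 1, 796 genes were called for d3 clone 12 and 610 for d3 clone 21, against 2 and 9 with it.

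The replicate term of the block fit, examined after the values were seen, put Slfn5 lower in replicate 2 of d3 by 1.22 on the log2 scale (log2 difference -1.22, SE 0.33, edgeR adjusted p = 0.0120) and Slfn9 higher by 1.26 (SE 0.26, edgeR adjusted p = 0.00217), where 28.6% of all tested genes were called. In a fit of the d3 libraries alone, with the replicate block, the edgeR adjusted p were 0.0465 and 0.0162, where 10.0% of tested genes were called. Without either replicate of d3 clone 12 or d3 clone 21 the call of Slfn5 was lost, with edgeR adjusted p from 0.0505 to 0.0546, and that of Slfn9 was kept. In the fit of all libraries neither gene was called in the other 4 recombinations. In fits of 1 recombination Slfn9 was also called in i10 (log2 difference -1.48, edgeR adjusted p = 0.0194), where 39.4% of tested genes were called.

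The range of the summed members over the parental lines, 1.96 on the log2(CPM + 0.1) scale, was 1.58 with a pseudocount of 1 and 1.21 without Slfn9, and 1.78 to 2.25 when 1 parental library was left out. It was 1.76 on 129S1 counts alone and 2.17 on CAST counts alone. d6 parental was the lowest line under each of these.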
